A study of Arabidopsis thaliana with 28 samples.

Results

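PDF1.2, PDF1.4, LCR69, THI2.1 and THI2.2 are antimicrobial peptide genes of Arabidopsis thaliana, the first 3 coding for plant defensins and the others for thionins. They were chosen by name, and each was read from the 1 probe set annotated to that gene alone, so they make up 5 of the 13356 genes with a probe set of their own, on an array of 22746 probe sets other than controls. The probe sets were 249052_at for PDF1.2 (AT5G44420), 261135_at for PDF1.4 (AT1G19610), 266119_at for LCR69 (AT2G02100, also named PDF2.2), 259802_at for THI2.1 (AT1G72260) and 249645_at for THI2.2 (AT5G36910). Shoots and roots of accession Col-0, grown on Murashige and Skoog medium in 16 h days, were compared over the day after mechanical wounding. Pin punctures were made from day 16, at 3 h into the light period, and tissue was taken 0.25, 0.5, 1, 3, 6, 12 and 24 h later. This gave 7 shoot groups and 7 root groups of 2 arrays each, 28 arrays in all. All plants in the comparisons had been wounded, and unwounded plants were not analysed here.

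Defensins and thionins are small, secreted, cysteine-rich peptides that damage the membranes of fungi and bacteria. In leaves PDF1.2 is the classic marker of defence driven jointly by jasmonate and ethylene, while wounding alone is known mainly for the jasmonate branch that runs through MYC transcription factors and restrains PDF1.2. THI2.1 is a jasmonate-inducible thionin, and THI2.2 is its close relative with strong seedling expression. LCR69 belongs to the second class of plant defensins, several of which are made in healthy tissue.

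The 24 h plants had been wounded too, but the clock time of their sampling matched that of the puncture, so 24 h in the same tissue served as the comparison for every other time. At 3, 6 and 12 h the time since wounding and the time of day cannot be told apart. Neither the punctured organ nor the origin of the replicates is stated in the labels. The p-values therefore measure the spread between these arrays, which may be technical. In whole organs, fewer cells of a type and less RNA per cell cannot be told apart. Signals are linear and were scaled by the authors to a common level. Log2 changes are on a log2(signal + 10.7) scale, which understates the changes of weak genes. A signal is called weak below the 40th percentile of its own array, which lay between 21.4 and 29.0.

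Array quality touched some of the comparisons. The shoot arrays at 0.25 h differed most between replicates: 50 of the 16263 probe sets tested differed by more than 4-fold, 48 of them higher on replicate 2, against 0 to 26 in the other 13 groups. The shoot arrays at 24 h had actin 3-prime to 5-prime ratios of 6.17 and 4.15 on one family of control probe sets, above the 2.22 to 3.68 of the other 12 shoot arrays. Their GAPDH ratios on that family, 1.59 and 1.32, were also above the 1.07 to 1.28 of the others. On an older family of controls their actin ratios, 10.4 and 9.17, lay within the 6.95 to 30.1 of the others, and the GAPDH ratio of replicate 1, 2.73, was above the 1.52 to 2.61 of the others. The part of either pattern in the results below was not tested. The labelled organs were borne out by markers, since the photosynthesis gene PRK had signals of 3254 to 5271 in shoots and 16.2 to 44.2 in roots.

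In shoots all 5 genes passed a test for any difference among the 7 times (moderated F-test, limma adjusted p between 1.09e-09 for THI2.2 and 0.0214 for PDF1.2), where 61.5% of all probe sets passed the same test. That share includes probe sets weak on all 14 shoot arrays, such as those of the defensins PDF2.1 and PDF2.5. PDF1.2 did not pass that F-test on the shoot arrays alone (adjusted p = 0.224). Several time courses appeared. PDF1.4 and THI2.1 were low in the first hour and higher from 3 h on. LCR69 was high at 3, 6 and 12 h. THI2.2 stood high at every time except 6 and 12 h. PDF1.2 was erratic, with a replicate pair at 0.25 h that spanned its whole range. In roots LCR69 followed a flatter version of its shoot course, PDF1.4 varied near the weak end of the scale, and PDF1.2, THI2.1 and THI2.2 were weak on all 14 arrays.

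**Figure D1:**
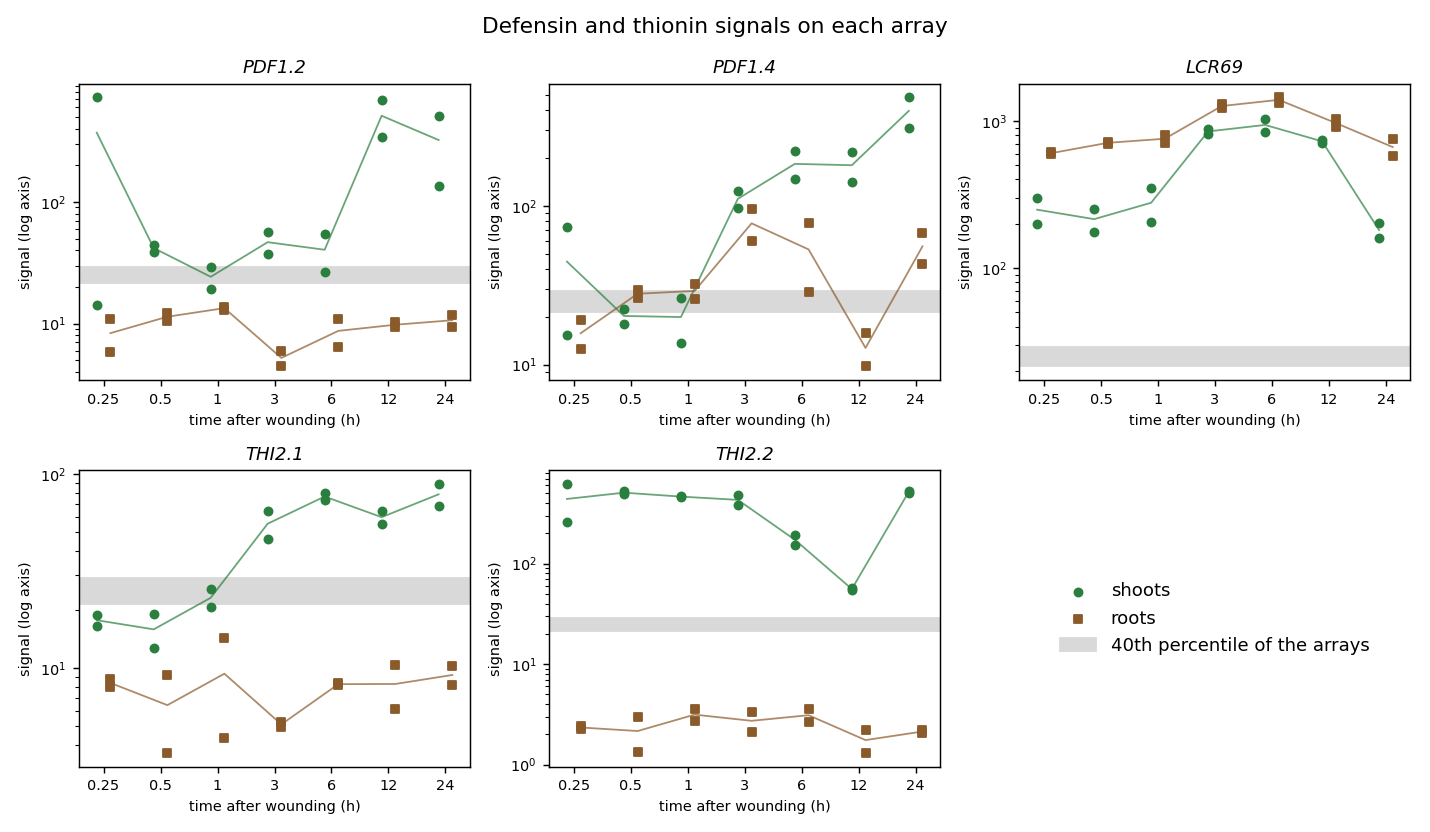
Signal of each gene (log axis) on every array, by time after wounding (evenly spaced, in hours), shoots as green circles and roots as brown squares. Lines join the means of the 2 arrays, and the grey band spans the 40th percentiles of the 28 arrays. Root points of PDF1.2, THI2.1 and THI2.2 all lie below the band, and the 2 shoot arrays of PDF1.2 at 0.25 h lie at 14.1 and 726.

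Against 24 h, 13 of the 30 shoot changes of the 5 genes passed the test (limma adjusted p under 0.05), where 24.6% of all such changes in shoots passed. Each of the 5 genes was above the 40th percentile on both shoot arrays of at least 4 times. The probe sets behind the 24.6% include some that entered the test through roots alone, so the shares are not like for like. The genes called numbered 2, 2, 3, 2, 2 and 2 of 5 at 0.25, 0.5, 1, 3, 6 and 12 h. Over all probe sets 24.4%, 25.9%, 32.9%, 21.7%, 23.1% and 19.6% were called at those times. In roots 1 of 30 changes passed, where 1.63% of all root changes did. PDF1.2, THI2.1 and THI2.2 entered the test through shoots alone and were weak on every root array. A root change of theirs could hardly be called, so the root count rests on PDF1.4 and LCR69 and is not comparable with that in shoots. The 5 genes' median log2 changes in shoots at 0.25, 0.5 and 1 h were -1.03, -1.75 and -1.40, beside -0.09, -0.07 and -0.06 over all probe sets. The first median is the change of PDF1.2, whose arrays at 0.25 h read 14.1 and 726, and the later ones are those of THI2.1. At these times LCR69 changed by 0.42, 0.22 and 0.55 and THI2.2 by -0.36, -0.03 and -0.16. The medians thus do not describe a fall shared by the 5 genes. All 6 comparisons in an organ share its 24 h arrays. Leaving out either shoot array of 0.25 h raised the count to 20 (replicate 1 left out) or 21 (replicate 2 left out).

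PDF1.4, a defensin of the same class as PDF1.2, was lowest in shoots in the first hour and highest at 24 h. Its 2 shoot arrays read 15.4 and 73.6 at 0.25 h, 22.4 and 18.1 at 0.5 h, and 26.2 and 13.7 at 1 h. They read 97.4 and 124 at 3 h, 146 and 221 at 6 h, 142 and 218 at 12 h, and 483 and 308 at 24 h. No array of the first hour reached the lowest of the later ones, and no array of any other time reached the lower 24 h array. Of the steps between neighbouring times only 3 h against 1 h passed, where 27.8% of all probe sets did, with 111 ± 18.8 at 3 h against 19.9 ± 8.85 at 1 h (SD, n = 2 each), a log2 change of 2.01 ± 0.46 (SE, limma adjusted p = 0.00324).

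Relative to 24 h (396 ± 124), PDF1.4 in shoots was lower at 0.25, 0.5, 1 and 3 h by log2 changes of -3.08, -3.69, -3.73 and -1.72 (SE 0.46 each, limma adjusted p = 0.000121, 1.40e-05, 8.91e-06 and 0.0132). At 6 and 12 h the changes were -1.06 and -1.09 and did not pass (0.111 at each time). PDF1.4 entered the test through arrays of 3 h and later alone, so a lower signal in the first hour was partly built into that choice. The value at 0.25 h was -2.24 without shoots 0.25 h replicate 1 and -3.93 without replicate 2, and passed either way. Replicate 1 decided the call at 3 h: the adjusted p was 0.0864 when it was left out at 3 h and 0.111 when it was left out at 24 h.

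In roots PDF1.4 read 19.0 and 12.5 at 0.25 h, 29.6 and 26.2 at 0.5 h, 25.8 and 32.3 at 1 h, 94.9 and 60.1 at 3 h, and 77.8 and 28.5 at 6 h. It read 9.74 and 15.7 at 12 h and 43.3 and 67.8 at 24 h. Both 12 h arrays and both 0.25 h arrays were below every array of 3, 6 and 24 h. In the 12 h roots 4 of the 5 shoot markers were also lower than at 24 h (RCA, LHCB4.1, LHCB4.2 and PRK, but not SBPASE), with sums over the 5 of 223 and 311 at 12 h against 437 and 591 at 24 h. Between 0.25 and 6 h the sums ran from 325 to 577, and at 0.25 h, when PDF1.4 was low too, they were 566 and 332. The part of the shoot markers in the 12 h values was not tested. The 7 root times differed in the F-test (limma adjusted p = 0.0451), where 14.8% of all probe sets passed, but no single time differed from 24 h; the change at 12 h was -1.49 ± 0.46 (adjusted p = 0.0607). The F-test lost its call in 11 of the 14 repeats that each left out 1 root array, with an adjusted p up to 0.134 without roots 12 h replicate 1.

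THI2.1, the jasmonate-inducible thionin, had a shoot course like that of PDF1.4 over a smaller range. Its shoot arrays read 18.7 and 16.5 at 0.25 h, 12.6 and 19.0 at 0.5 h, 25.4 and 20.6 at 1 h, and 46.0 and 64.7 at 3 h. They read 73.1 and 79.7 at 6 h, 64.3 and 55.3 at 12 h, and 88.8 and 68.0 at 24 h. The 6 arrays of the first hour all lay below the 8 later ones, and 5 of the 6 were weak. THI2.1 entered the test through shoots at 3, 6, 12 and 24 h alone. A lower signal in the first hour than at those times was thus partly built into that choice.

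Relative to 24 h (78.4 ± 14.7), THI2.1 in shoots was lower by -1.64 ± 0.22 at 0.25 h, -1.75 ± 0.22 at 0.5 h and -1.40 ± 0.22 at 1 h (limma adjusted p = 8.08e-06, 2.83e-06 and 3.71e-05). At 3, 6 and 12 h its changes were -0.44, -0.02 and -0.33, and none passed (adjusted p = 0.162, 0.960 and 0.319). Between neighbouring times, 3 h exceeded 1 h by 0.96 ± 0.22 (adjusted p = 0.00193). In roots THI2.1 stayed between 3.64 and 14.3 on all 14 arrays, and its root F-test did not pass (adjusted p = 0.844).

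Across the 14 shoot arrays PDF1.4 and THI2.1 had a Pearson r of 0.90 (Spearman 0.85), given as a description of arrays that share their time groups. PYK10, a beta-glucosidase of ER bodies that is also a root marker, was lower in the same early shoots, at 597, 675 and 742 at 0.25, 0.5 and 1 h against 1570 at 24 h. Summed over the 4 measured root markers, shoot signals were 617 to 842 in the first hour and 1560 and 1679 at 24 h, but PYK10 was the only marker of the 4 to pass, and EXPA7, EXPA18 and LBD16 did not. In roots, where those markers summed to 2994 to 4184, the highest signals of PDF1.4 and THI2.1 were 94.9 and 14.3, below their lowest shoot signals from 3 h on (97.4 and 46.0). The part of root-marker RNA in the early shoot values was not tested.

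LCR69 was the only one of the 5 genes above the 40th percentile on all 28 arrays. In shoots it read 299 and 199 at 0.25 h, 253 and 177 at 0.5 h, 204 and 351 at 1 h, 820 and 877 at 3 h, 1033 and 846 at 6 h, 742 and 711 at 12 h, and 159 and 204 at 24 h. The 6 arrays of 3, 6 and 12 h lay above all 8 others. In roots it read 613 and 593 at 0.25 h, 722 and 698 at 0.5 h, 708 and 806 at 1 h, 1307 and 1219 at 3 h, 1452 and 1331 at 6 h, 1031 and 905 at 12 h, and 751 and 578 at 24 h. The same 3 times held the 6 highest root arrays.

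Relative to 24 h, LCR69 in shoots was higher by 2.17 ± 0.21 at 3 h, 2.31 ± 0.21 at 6 h and 1.95 ± 0.21 at 12 h (limma adjusted p = 2.56e-07, 3.30e-08 and 6.67e-07). The early changes of 0.42, 0.22 and 0.55 did not pass (0.158, 0.482 and 0.0504), and those at 0.25 and 1 h rested on single arrays. The change at 1 h was 0.93 and passed with replicate 1 of 1 h left out (0.00367), 0.72 and passed with replicate 2 of 24 h left out (0.0402), and also passed under the filter at the 60th percentile (0.0462). The change at 0.25 h was 0.70 and passed with replicate 2 of 0.25 h left out (0.0396). The rise fell between 1 h and 3 h (1.62 ± 0.21, adjusted p = 4.99e-06) and the return between 12 h and 24 h (-1.95 ± 0.21, adjusted p = 6.67e-07).

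In roots the same comparison gave 0.93 ± 0.21 at 3 h, 1.07 ± 0.21 at 6 h and 0.55 ± 0.21 at 12 h, of which 6 h passed (limma adjusted p = 0.0562, 0.0107 and 0.128). At 6 h 1.21% of all probe sets were called in roots. That call was lost when either the first 6 h array (0.0934) or the second 24 h array (0.0839) of roots was left out. The root F-test over the 7 times passed (adjusted p = 0.00134) and held with each array left out. The change against 24 h was larger in shoots than in roots by 1.24 ± 0.30 at 3 h, 1.24 ± 0.30 at 6 h and 1.41 ± 0.30 at 12 h (interaction, adjusted p = 0.0119, 0.00752 and 0.00334), where 8.43%, 12.8% and 11.9% of all probe sets passed. The interaction at 3 h did not pass without shoots 3 h replicate 2 (0.0519), roots 3 h replicate 2 (0.0518), shoots 24 h replicate 1 (0.0623) or roots 24 h replicate 1 (0.0548).

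THI2.2 ran the other way in shoots. Its arrays read 621 and 258 at 0.25 h, 492 and 523 at 0.5 h, 473 and 455 at 1 h, and 480.4 and 380.3 at 3 h. They then read 191 and 154 at 6 h, 57.0 and 54.7 at 12 h, and 508 and 530.3 at 24 h. The 4 arrays of 6 and 12 h were the lowest of the 14, and those of 12 h were below those of 6 h.

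THI2.2 in shoots fell to 172 ± 26.5 at 6 h and 55.9 ± 1.58 at 12 h, against 519 ± 15.5 at 24 h (SD, n = 2 each). The log2 changes were -1.54 ± 0.23 and -2.99 ± 0.23 (limma adjusted p = 2.70e-05 and 3.16e-09). In the same arrays the summed shoot markers were lower too, at 17979 to 21229 over 6 and 12 h against 26487 and 28654 at 24 h. From 0.25 to 3 h the sums were also below those of 24 h, at 19594.5 to 24213, while THI2.2 read 258 to 621. Of the 5 markers 3 passed as lower at 6 h (RCA, SBPASE and PRK, by -0.56, -0.97 and -0.49) and 1 at 12 h (LHCB4.2, by -1.90), and their part in the THI2.2 change was not tested. Both steps down passed, -1.27 ± 0.23 at 6 h against 3 h and -1.45 ± 0.23 at 12 h against 6 h (0.000835 and 0.000176, where 11.8% and 10.2% of all probe sets passed), as did the return at 24 h against 12 h (2.99 ± 0.23, where 19.6% passed). At 0.25, 0.5, 1 and 3 h the changes against 24 h lay between -0.36 and -0.03 and none passed. Among the early arrays the lowest was replicate 2 of 0.25 h. With replicate 1 of that time left out, the change at 0.25 h was -0.98 and passed (0.000216). In roots THI2.2 lay between 1.3 and 3.59 on all 14 arrays.

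**Figure D2:**
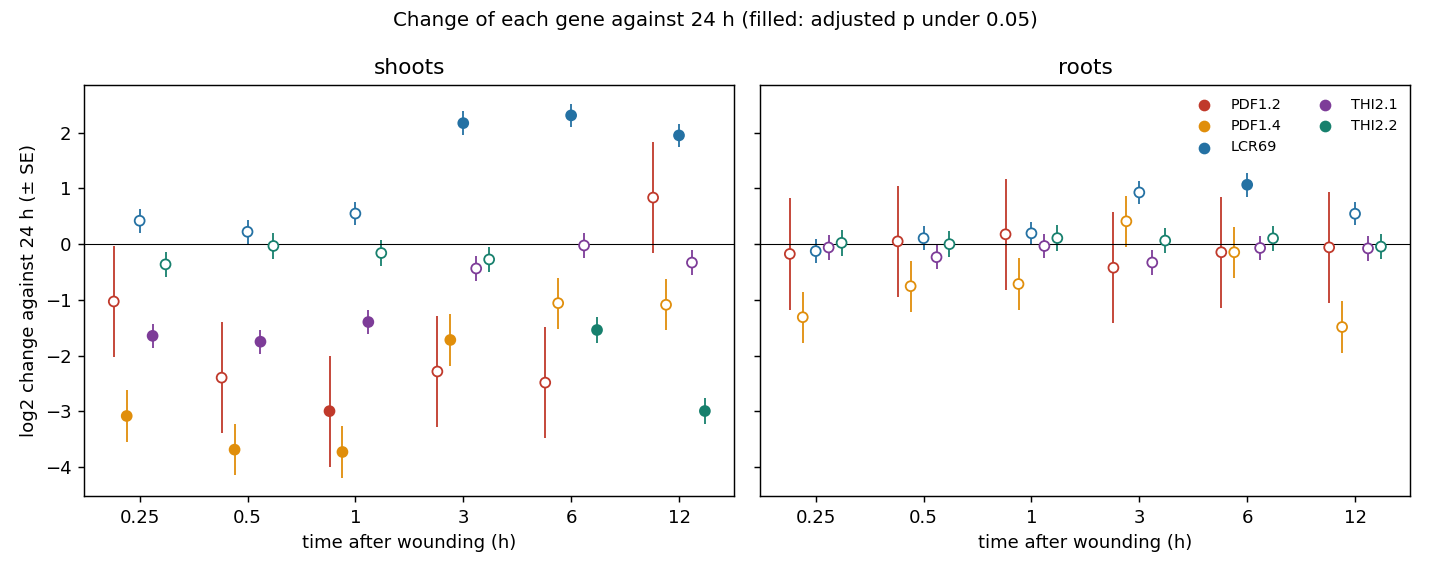
Log2 change against 24 h (± SE from the fit) of each gene at 6 times after wounding (hours, evenly spaced), shoots on the left and roots on the right. Filled points passed the test. In shoots LCR69 lies near 2 at 3, 6 and 12 h, PDF1.4 below -3 in the first hour and THI2.2 at -2.99 at 12 h, and in roots the only filled point is LCR69 at 6 h.

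PDF1.2 was the least reproducible of the 5. In shoots its arrays read 14.1 and 726 at 0.25 h, 44.5 and 39.1 at 0.5 h, 19.2 and 29.3 at 1 h, 37.3 and 56.1 at 3 h, and 26.8 and 54.1 at 6 h. They read 339 and 682 at 12 h and 509.6 and 135 at 24 h. Both 12 h arrays and both 24 h arrays lay above all 8 arrays of 0.5 to 6 h, while the 2 arrays of 0.25 h were the lowest and the highest of all 14. The replicates differed 51.5-fold at 0.25 h, which ranked 2 among the 16263 probe sets in that pair on the log2 scale.

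The spread of PDF1.2 in shoots was therefore wide, with a log2 SD between replicates of 0.10 to 3.46. The SE of 1.0 for each change also drew on the weak root arrays, where that SD was 0.03 to 0.27. It also drew on the shoot pair at 0.25 h, where the SD was 3.46. The SE is thus below the spread in shoots at 0.25 and 24 h. At 0.5, 1, 3, 6 and 12 h the SD in shoots was 0.10 to 0.70, and there the SE is above the spread. On the shoot arrays alone the F-test over the 7 times did not pass (limma adjusted p = 0.224). Nor did the changes at 1 h against 24 h (0.156) and at 12 h against 6 h (0.222). Against 24 h it was lower in shoots at 1 h, by -3.0 (limma adjusted p = 0.0313). The changes at 0.5, 3 and 6 h, -2.40, -2.28 and -2.48, were of similar size and did not pass (0.0941, 0.121 and 0.0886), and those at 0.25 and 12 h were -1.03 and 0.84 (0.494 and 0.620). The call at 1 h ended without shoots 1 h replicate 1 (0.126), shoots 1 h replicate 2 (0.0817) or shoots 24 h replicate 1 (0.233). At 0.25 h the change was -3.48 and passed without replicate 2 (0.000126), and was 1.42 and did not pass without replicate 1 (0.0719).

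Between neighbouring times PDF1.2 was higher at 12 h than at 6 h by 3.32 ± 1.0 (limma adjusted p = 0.0469), where 10.2% of all probe sets differed. The 12 h arrays did not overlap those of 6 h, but the call ended without any 1 of the 4 arrays (adjusted p between 0.0981 and 0.235). In roots PDF1.2 lay between 4.45 and 13.8 on all 14 arrays and its F-test gave an adjusted p of 1. The F-test in shoots lost its call without shoots 12 h replicate 2 (0.0846).

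PDF1.2b (AT2G26020), a near-identical copy of PDF1.2, was read from a probe set of the kind whose probes also match other sequences, so the signals of the copies cannot be separated with certainty. It moved with PDF1.2 over the shoot arrays (Pearson r 0.97, Spearman 0.94, 14 arrays). It read 18.6 and 1537 at 0.25 h, 36.6 and 190 at 6 h, 854 and 1329 at 12 h, and 835 and 161 at 24 h. The high array at 0.25 h was thus the same one for both probe sets, shoots replicate 2, and that array also had the higher PDF1.4 signal of its pair (73.6 against 15.4). For THI2.1 the same array read 16.5, beside 18.7 on replicate 1, and for THI2.2 and LCR69 it read the lower value of the pair.

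**Figure D3:**
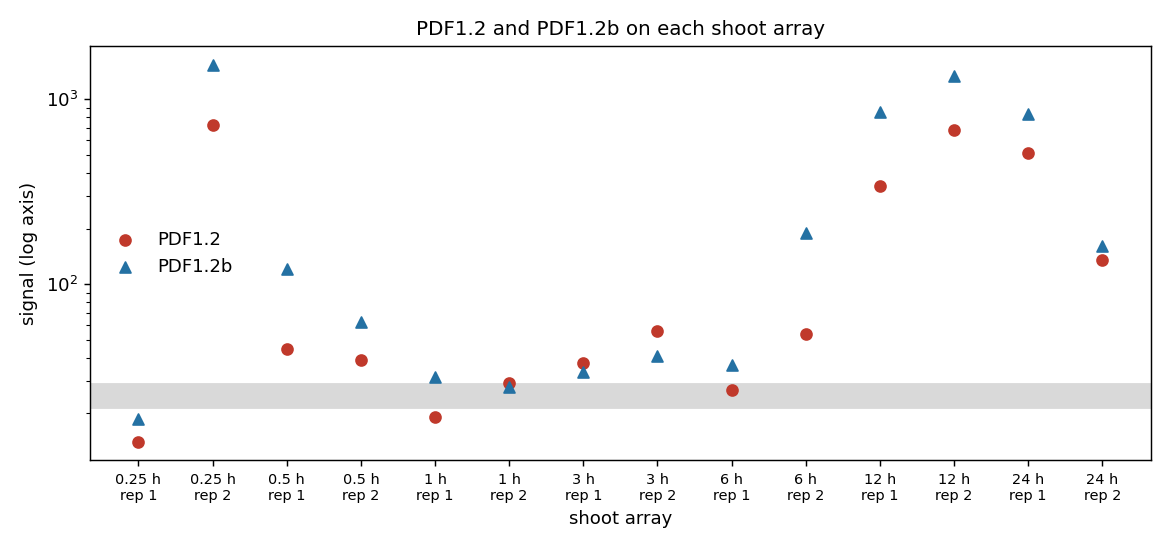
Signals (log axis) of PDF1.2 (red circles) and PDF1.2b (blue triangles) on each of the 14 shoot arrays, ordered by time after wounding, with the 40th percentiles of the 28 arrays as a grey band. Both genes are high on replicate 2 at 0.25 h (726 and 1537), on both arrays at 12 h and on replicate 1 at 24 h.

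Averaged over the 7 times, 4 of the 5 genes were higher in shoots and LCR69 was lower. Shoots minus roots was 2.3 ± 0.38 for PDF1.2, 1.13 ± 0.17 for PDF1.4, 1.47 ± 0.08 for THI2.1, 4.57 ± 0.09 for THI2.2 and -1.11 ± 0.08 for LCR69 on the log2 scale. All 5 passed (limma adjusted p between 1.75e-22 for THI2.2 and 2.98e-05 for PDF1.2), where 88.2% of all probe sets did, 31.3% with a higher signal in shoots and 56.9% with a higher signal in roots. The median of all tested probe sets was -0.27, and -0.16 after quantile normalization, with LCR69 then at -1.28. PDF1.2, THI2.1 and THI2.2 entered the test through their shoot arrays alone, so a difference between the organs was built into that choice, and their root signals are too weak for the size of the difference to be exact.

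Time by time, 26 of the 35 differences between shoots and roots passed, where 69.7% of all such differences did. Of the 35, 21 belong to PDF1.2, THI2.1 and THI2.2, which entered the test through shoots alone, so the count is partly fixed by the filter; PDF1.4 and LCR69 passed in 9 of 14. THI2.2 and THI2.1 were higher in shoots at all 7 times, against root signals too weak for the sizes to be exact. The fitted THI2.2 difference was 3.73 at 6 h and 2.42 at 12 h, and between 4.98 and 5.37 at the other times. That of THI2.1 was 0.57 to 0.79 in the first hour and 1.90 to 2.2 later. PDF1.4 differed between the organs at 6, 12 and 24 h, by 1.70, 3.01 and 2.61 (± 0.46), and at the 4 earlier times its differences of -0.40 to 0.84 did not pass. LCR69 was lower in shoots at every time but 12 h, where the difference of -0.41 ± 0.21 did not pass (adjusted p = 0.0905) and became -0.66 and passed after quantile normalization (0.00715). PDF1.2 was higher in shoots at 0.25, 12 and 24 h.

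Several of these differences rested on single arrays. The PDF1.2 call at 0.25 h ended without shoots 0.25 h replicate 2 (limma adjusted p = 0.521, with a difference of 0.39) or roots 0.25 h replicate 1 (0.0798), and the one at 24 h without shoots 24 h replicate 1 (0.0505). The PDF1.4 call at 6 h ended without roots 6 h replicate 2 (0.0715). The LCR69 calls ended at 3 h without any 1 of the 4 arrays (0.0510 to 0.0989) and at 6 h without shoots 6 h replicate 2 (0.166) or roots 6 h replicate 1 (0.107). Those of THI2.1 ended at 0.25 h without shoots 0.25 h replicate 1 (0.0989) or either root array (0.0856 and 0.0627), at 0.5 h on leaving out replicate 2 of shoots (0.131) or of roots (0.179), and at 1 h without roots 1 h replicate 2 (0.119). At 0.25 h PDF1.4 passed without shoots 0.25 h replicate 1, with a difference of 1.68 (0.00217).

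**Figure D4:**
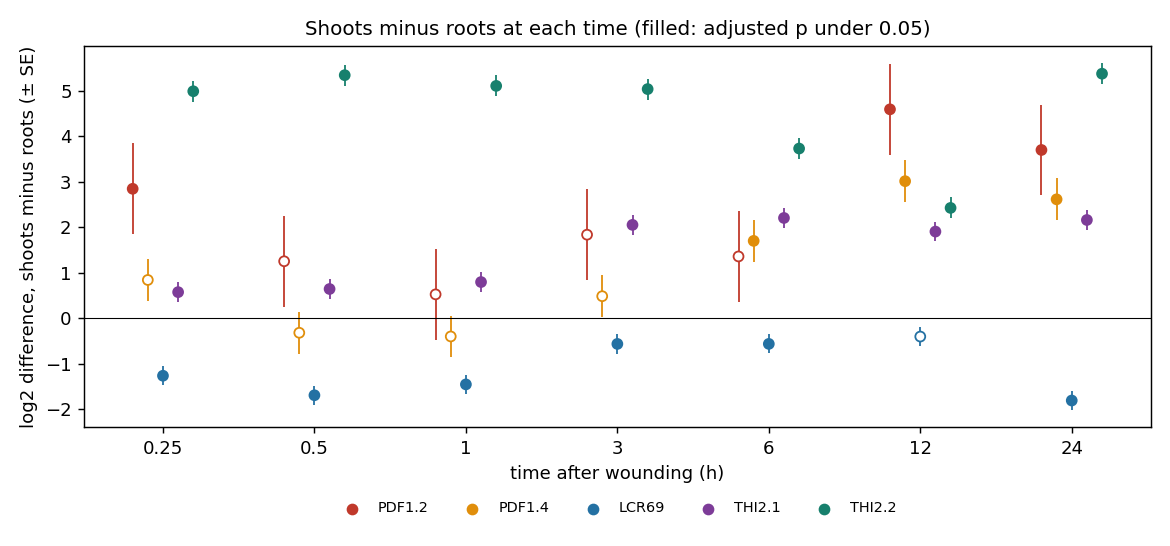
Log2 difference of shoots minus roots (± SE from the fit) for each gene at the 7 times after wounding (hours, evenly spaced), with filled points where the test passed. THI2.2 lies lowest at 12 h (2.42), LCR69 lies nearest to 0 at 12 h (-0.41), and PDF1.4 passes from 6 h on.

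The interaction of tissue and time passed for 4 of the 5 genes. Of these, THI2.1 and THI2.2 entered the test through shoots alone and were weak on all 14 root arrays. For them a course in shoots was enough for a call, so the outcome was largely built into that choice. The F-test of the interaction of tissue and time gave limma adjusted p = 0.00146 for PDF1.4, 0.00121 for LCR69, 7.18e-05 for THI2.1 and 1.08e-06 for THI2.2, and 0.174 for PDF1.2, where 42.2% of all probe sets passed. For PDF1.4 the change against 24 h was more negative in shoots than in roots by -2.93 ± 0.65 at 0.5 h and -3.01 ± 0.65 at 1 h (adjusted p = 0.00661 and 0.00406), where 11.4% and 16.1% of all probe sets passed. For THI2.1 the difference was -1.59, -1.52 and -1.36 (± 0.31) at 0.25, 0.5 and 1 h (0.00157, 0.00202 and 0.00366), with 9.43% of all probe sets called at 0.25 h, and for THI2.2 it was -1.64 ± 0.32 at 6 h and -2.95 ± 0.32 at 12 h (0.00145 and 3.05e-06). THI2.1 and THI2.2 are weak in roots at every time, so their flat root courses are at the low end of what the arrays measure. On the log2(signal + 1) scale the THI2.1 differences at 0.5 and 1 h did not pass (0.0689 and 0.0770). The PDF1.2 interaction passed without shoots 0.25 h replicate 1 (5.41e-05) or replicate 2 (0.000144).

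Another 10 defensin genes had a named probe set, 4 of which passed the filter: PDF1.2b, PDF2.1, LCR68 and PDF2.5. Against 24 h, 1 of the 4 passed in shoots (PDF2.5 at 6 h, where 23.1% of all probe sets passed) and 1 in roots (PDF2.1 at 6 h, where 1.21% passed). PDF2.1 and LCR68 lie 2 and 3 genes from LCR69 on chromosome 2, in the gene order of the RefSeq TAIR10.1 annotation. PDF2.1 was weak on all 14 shoot arrays, with a highest signal of 9.98. In roots it read 55.9 and 40.3 at 0.25 h, 91.4 and 70.0 at 0.5 h, 61.4 and 74.1 at 1 h, 226 and 163 at 3 h, 370.1 and 363 at 6 h, 90.6 and 80.8 at 12 h, and 129 and 67.2 at 24 h.

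The 6 h and 3 h root arrays of PDF2.1 were its highest, as they were for LCR69. PDF2.1 was higher in roots at 6 h than at 24 h by 1.85 ± 0.26 (limma adjusted p = 0.000472) and its root F-test ranked 53 of the 16263 (adjusted p = 6.34e-06). Over the 14 root arrays LCR69 and PDF2.1 had a Pearson r of 0.90 (Spearman 0.90). LCR68 ranged from 268 to 502 in shoots and from 553 to 1249 in roots, with F-tests that did not pass (adjusted p = 0.245 in shoots and 0.308 in roots). In shoots it averaged 489 ± 18.8 at 3 h and 298 ± 36.6 at 24 h (SD, n = 2 each), its highest and lowest means, and its Pearson r with LCR69 was 0.73 (Spearman 0.70) over the 14 arrays. In roots the same r was -0.14 (Spearman -0.12). Its mean difference of shoots minus roots, -1.18 ± 0.10, had the sign of that of LCR69.

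**Figure D5:**
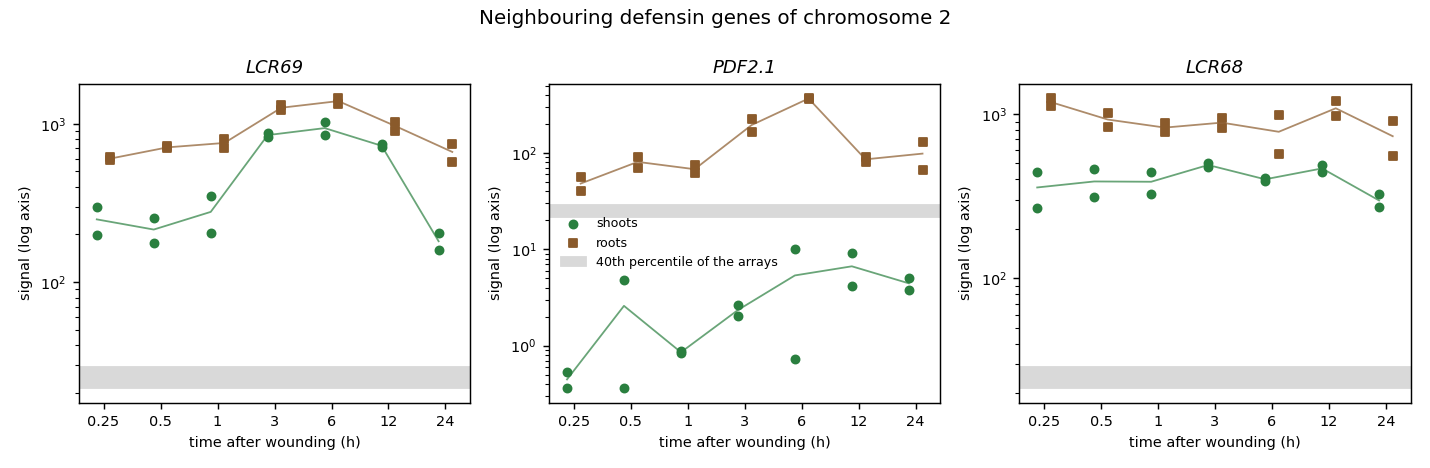
Signals (log axis) of LCR69, PDF2.1 and LCR68, which lie near each other on chromosome 2, by time after wounding (hours, evenly spaced), shoots as green circles and roots as brown squares, with lines through the means and the 40th percentiles of the arrays as a grey band. LCR69 and PDF2.1 are highest in roots at 6 h, and PDF2.1 is below the band on every shoot array.

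PDF2.5, a further defensin of the LCR69 class, read at most 12.5 in shoots and 363.0 to 588 in roots, and was thus lower in shoots. It entered the test through roots alone and was weak on all 14 shoot arrays, so no size is given for the difference. Its call in shoots at 6 h (0.47, adjusted p = 0.0479) was between weak signals. Of the 6 other relatives on the array, 5 were weak on all 28 arrays and LCR66 was above the 40th percentile on a single shoot array.

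From a list of regulators of jasmonate and ethylene signalling, which holds factors of both the ethylene and the wound branch, 4 genes were measured under their own names. Against 24 h in shoots 2, 3, 1, 1, 2 and 0 of the 4 passed at 0.25, 0.5, 1, 3, 6 and 12 h, where 24.4%, 25.9%, 32.9%, 21.7%, 23.1% and 19.6% of all probe sets did. EIN3, the central transcription factor of ethylene signalling, was higher than at 24 h in shoots at 0.5, 1, 3 and 6 h, by 0.47, 0.60, 0.65 and 0.35. ORA47, an activator of jasmonate synthesis genes, was higher at 0.25 and 0.5 h, by 4.01 and 1.84, when PDF1.4 and THI2.1 stood at their low early levels. MYC4, a factor of the wound branch, was lower at 0.25, 0.5 and 6 h (-0.97, -0.83 and -1.08), and its partner MYC3 did not pass at any time. In roots none of the 4 passed against 24 h, where 0.0553% to 7.38% of all probe sets did.

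Of the wound-branch jasmonate targets 3 were measured: OPCL1, JMT and PYK10. At 0.25, 0.5 and 1 h in shoots 1, 1 and 2 of them passed as higher than at 24 h and 1 as lower at each time, and at 3 and 6 h 1 passed as lower. Over all probe sets 9.93%, 11% and 14.5% passed as higher at 0.25, 0.5 and 1 h. Those lower were 14.4%, 14.9%, 18.4%, 10.2% and 10% at 0.25, 0.5, 1, 3 and 6 h. The lower gene of the list was PYK10 at 0.25, 0.5, 1 and 3 h (-1.38, -1.21, -1.07 and -0.38). OPCL1, a ligase of jasmonate synthesis, was higher in shoots at 0.25, 0.5 and 1 h by 2.25, 3.07 and 3.12. JMT, the jasmonate methyltransferase, lies 3 genes from PDF1.4 on chromosome 1. It was higher in shoots at 1 h (1.5) and lower at 6 h (-1.16), a course unlike that of PDF1.4. The glutaredoxin GRX480, which in Arabidopsis represses PDF1.2 when overproduced, was the only gene of the salicylate list with a named probe set. It was higher than at 24 h in shoots at 0.25, 0.5, 1, 6 and 12 h, by 2.08, 2.56, 1.96, 1.15 and 1.32. PDF1.2 changed by -1.03, -2.40, -3.0, -2.28, -2.48 and 0.84 at 0.25, 0.5, 1, 3, 6 and 12 h, and passed at 1 h alone. A link between GRX480 and PDF1.2 was not tested. None of OPCL1, JMT, PYK10 and GRX480 passed in roots. All these comparisons share the 24 h arrays with those of the 5 peptide genes.

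The probe sets most like each gene were taken over the 14 arrays of an organ, among 8877 with 1 gene, as a description of shape, whatever the size of the change. For LCR69 they were UGT80B1 (Pearson r 0.97), a sterol glucosyltransferase, WLIM1 (0.97), a LIM-domain protein of the actin cytoskeleton, and AT5G03460 (0.96) in shoots. In roots they were AT5G64250 (0.96), WLIM1 again (0.96) and AT1G56300 (0.95). Those most like PDF1.4 in shoots were AT2G37130 (0.96), AT3G56310 (0.95) and CuAO1 (0.95), a copper amine oxidase. In roots they were AT2G35490 (0.90), FMO (0.90) and AT4G10330 (0.89). AT2G35490 and AT4G10330 changed little there, with signals of 87.1 to 110 and 126 to 177, against 9.74 to 94.9 for PDF1.4.

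For THI2.1 in shoots the closest were AT3G15720, AT1G73170 and the cation exchanger CHX20 (0.94 each), and for THI2.2 they were AT5G35970 (0.95), AT4G13010 (0.95) and AT5G64780 (0.92). For PDF1.2 they were PDF1.2b (0.97), AT2G43630 (0.95) and AT1G26390 (0.92), an order that rests on the 5 arrays where PDF1.2 exceeded 100. AT2G43630 ranged only from 264 to 346 over the shoot arrays, against 14.1 to 726 for PDF1.2. No likeness is given in roots for PDF1.2, THI2.1 and THI2.2, which were weak on all 14 root arrays.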

How the data were processed

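The 28 arrays were ATH1 GeneChips. The authors deposited 1 linear intensity per probe set. Per the submitters' processing notes they used MAS5, with no version given in the sources used here. The mean without the top and bottom 2% was 100.01 on every array, so no further scaling was applied. Of 22810 probe sets, 64 controls were left out, and 16263 above the 40th percentile on both arrays of at least 1 group were tested. R 4.3.3 and limma 3.58.1 fitted log2(signal + 10.7), where 10.7 is the 25th percentile of all signals, by 1 mean per tissue and time. This left 14 residual degrees of freedom, and eBayes was run with its trend and robust options. P-values were adjusted by Benjamini-Hochberg per contrast over the 16263, and called under 0.05. The fit was tested on simulated data.

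Names came from the platform annotation (13513 probe sets with 1 gene, 503 with several, 8794 unnamed here), with 13436 symbols updated to RefSeq TAIR10.1. The text gives the 5 genes, counts over the measured genes of fixed lists with values for those that passed a test, and the 3 probe sets most like each gene per tissue. Genes and lists were chosen with earlier results of these data known. Lists of jasmonate and ethylene targets and of salicylate targets had no named probe set. No sequences or coordinates are given. The values were recomputed with each array left out, on arrays of 1 tissue only, against other reference times, with a replicate block, with plain eBayes, on log2(signal + 1), after quantile normalization, and with no filter or one at the 60th percentile.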

Additional observations from a re-analysis of the deposited data

Results flagged for a closer look

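For 4 genes the F-test of the interaction of tissue and time, a test of whether the time course differed between the organs, passed. The limma adjusted p was 0.00146 for PDF1.4, 0.00121 for LCR69, 7.18e-05 for THI2.1 and 1.08e-06 for THI2.2. Each test kept its call in the 28 repeats that left out 1 array and in all 6 other alternatives run for it, with a highest adjusted p of 0.00528, 0.00417, 0.00777 and 0.000100 for these genes. THI2.1 and THI2.2 entered the test through shoots alone, and their root signals were weak on all 14 arrays. For them a course in shoots was enough for a call.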

How the results depend on the processing

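Over all alternatives but the 2 other reference times, the direction of every called result was kept. The calls against 24 h in shoots numbered 13 of 30, 12 to 15 under the 8 alternatives and 11 to 21 with each array left out. In roots the 1 call became 2 on the log2(signal + 1) scale, 2 without trend and robust, 3 with 0.25 h as the reference, 4 with the arrays of the same tissue alone, and 0 to 3 with each array left out. Against the 3, 6 and 12 h groups averaged, the calls at 0.25, 0.5 and 1 h were 12 in shoots, against 7 with 24 h, and 3 in roots, against 0. The share over all probe sets rose too. In shoots it was 34.1%, 34.5% and 37.9%, against 24.4%, 25.9% and 32.9% with 24 h. In roots it was 4.66%, 5.84% and 4.51%, against 0.314%, 0.418% and 0.0553%. With 24 h as the reference, leaving out arrays gave 6 to 11 calls in shoots at these times. A new reference turned signs by construction. With 0.25 h, PDF1.4 in shoots was higher at 3, 6 and 12 h by 1.36, 2.02 and 1.99, and THI2.1 by 1.21, 1.62 and 1.31. The THI2.1 change at 1 h, 0.25, did not pass (limma adjusted p = 0.478). Against the 3, 6 and 12 h average, LCR69 at 0.25, 0.5 and 1 h stood at -1.72, -1.92 and -1.59 in shoots and at -0.74 and -0.65 in roots at 0.5 and 1 h, and THI2.2 in shoots at 1.24, 1.57 and 1.44. The F-test of PDF1.4 in roots did not pass after quantile normalization (adjusted p = 0.0608), and ran from 0.0167 to 0.134 with arrays left out. That of PDF1.2 in shoots did not pass on the shoot arrays alone (0.224) and ran from 6.88e-07 to 0.0846 with arrays left out, and its interaction from 5.41e-05 to 0.325. The PDF1.2 call at 1 h did not pass on the shoot arrays alone (0.156) or with the other references (0.19 and 0.12), and its call at 12 h against 6 h did not pass on the log2(signal + 1) scale (0.0550), without a filter (0.0538) or on the shoot arrays alone (0.222). The causes were not tested.

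Deviations of same-numbered arrays correlated at -0.23 to 0.18 within shoots, -0.28 to 0.19 within roots and -0.10 to 0.05 between the organs at the same time. They thus had little in common, but this cannot tell whether same-numbered samples came from the same plants. With the replicate block the counts stayed at 13 and 1. The block ended the calls of the F-test of PDF1.4 in roots (0.0629), of PDF1.2 at 12 h against 6 h (0.0508), and of shoots minus roots at 0.25 h for PDF1.2 (0.0527) and THI2.1 (0.0746), and changed no other call. With 2 arrays per group, their number limits the precision.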
